A study of Mus musculus with 12 samples.

Results

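The 39 genes described here encode contractile and cytoskeletal proteins of smooth muscle and myofibroblasts, or are regulators and targets of the transcription factor SRF and of the coactivators YAP and TAZ. They were chosen by symbol, with earlier results of these data known, and all 39 were found among the 24035 gene symbols of each count file. RNA sequencing was done on 12 libraries from C57BL/6J mouse bone marrow, 3 in each of 4 groups, each from 1000 to 5000 sorted cells. GFPneg and GFPpos were fresh, untransduced cells without the surface markers CD45, Ter119 and CD31, negative or positive for a green fluorescent reporter of Scf, the stem cell factor gene listed as Kitl. Control was stroma with a control vector, and rMSC ("revitalized MSCs", mesenchymal stromal cells) was stroma transduced together with Klf7, Ostf1, Xbp1, Irf3 and Irf7. Both came from cultures of reporter-positive cells in alpha-MEM with 20% fetal bovine serum, antibiotics, glutamine and 10 ng/ml basic FGF, and the days in culture and animal ages are not given in the sources used here. The marker sort defines the fresh groups, and no label ties a replicate number to an animal or a culture, so a p-value here covers the variation among sequenced libraries alone, which may be technical.

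The libraries held 60507051 to 85353566 counts. Kitl followed the sort, at 0 to 1.60 CPM (counts per 1000000, with library sizes scaled by TMM factors) in GFPneg and 292 to 479 in GFPpos, and each of the 5 transduced genes was higher in every rMSC library than in every control library. Markers of blood cells were present in both fresh groups: GFPpos replicates 2 and 3 held 3362 and 2955 CPM over 10 megakaryocyte markers against 218 in replicate 1, and GFPneg replicate 2 held 229 against 58.1 and 58.7 in the others. In bulk RNA, fewer cells of a type and less RNA per cell cannot be told apart.

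Smooth muscle cells contract when myosin light chain kinase phosphorylates the regulatory light chain of myosin, which then pulls on actin filaments that carry tropomyosin, calponin and caldesmon. Many of these genes are switched on by SRF, which binds a DNA element called the CArG box together with myocardin, its smooth and cardiac muscle coactivator, or with MRTF proteins, which enter the nucleus when monomeric actin is used up. YAP and TAZ also respond to spread shape and actin tension, act through TEAD factors bound to the MCAT element, and are held back by the Hippo kinases LATS1 and LATS2. In bone marrow such genes mark arterioles and perivascular cells, and stromal cells on culture plastic are known to take on stress fibres.

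The promoters of 7 genes that hold these elements are printed to show them, and were not picked by the size of a change in level. They come from RefSeq sequences of build GRCm38.p6 and run from 220 bases before the annotated start to 20 bases after it. They read 5′ to 3′ on the gene's strand, with CArG boxes and CATTCC (the MCAT core, or GGAATG on the other strand) in capitals. A CArG box here is CC and GG with only A and T between them. Looser forms with a G or C between them, as in Acta2, were not marked or counted. Srf, Acta1, Myl9 and Cnn2 are shown for their CArG boxes, and Acta2, Cyr61 and Ankrd1 for the MCAT core:
Srf (chr17:46556143-46556382, minus strand): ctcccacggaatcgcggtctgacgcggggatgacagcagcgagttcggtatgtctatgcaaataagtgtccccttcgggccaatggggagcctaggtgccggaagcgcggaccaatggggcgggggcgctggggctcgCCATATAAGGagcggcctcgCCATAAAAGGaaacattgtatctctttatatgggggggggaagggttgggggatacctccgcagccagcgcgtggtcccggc
Acta1 (chr8:123894756-123894995, minus strand): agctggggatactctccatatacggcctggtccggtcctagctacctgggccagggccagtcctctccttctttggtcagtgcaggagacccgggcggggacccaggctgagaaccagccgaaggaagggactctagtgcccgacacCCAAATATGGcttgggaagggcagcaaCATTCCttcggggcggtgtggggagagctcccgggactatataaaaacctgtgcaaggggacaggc
Myl9 (chr2:156775244-156775483, plus strand): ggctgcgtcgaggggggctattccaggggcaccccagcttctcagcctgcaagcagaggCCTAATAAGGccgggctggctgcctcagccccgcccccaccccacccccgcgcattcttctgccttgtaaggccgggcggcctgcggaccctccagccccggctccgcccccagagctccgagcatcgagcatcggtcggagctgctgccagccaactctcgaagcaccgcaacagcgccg
Cnn2 (chr10:79988380-79988619, plus strand): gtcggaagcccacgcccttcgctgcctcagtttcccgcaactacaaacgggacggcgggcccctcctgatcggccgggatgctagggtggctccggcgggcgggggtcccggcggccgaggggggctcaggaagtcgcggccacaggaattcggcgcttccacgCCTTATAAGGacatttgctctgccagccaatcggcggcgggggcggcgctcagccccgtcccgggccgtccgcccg
Acta2 (chr19:34255354-34255593, minus strand): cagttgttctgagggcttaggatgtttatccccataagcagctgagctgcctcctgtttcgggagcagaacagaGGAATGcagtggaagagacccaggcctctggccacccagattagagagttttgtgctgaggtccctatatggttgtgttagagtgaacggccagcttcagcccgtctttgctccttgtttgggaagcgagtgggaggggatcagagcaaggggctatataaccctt
Cyr61 (chr3:145649966-145650205, minus strand): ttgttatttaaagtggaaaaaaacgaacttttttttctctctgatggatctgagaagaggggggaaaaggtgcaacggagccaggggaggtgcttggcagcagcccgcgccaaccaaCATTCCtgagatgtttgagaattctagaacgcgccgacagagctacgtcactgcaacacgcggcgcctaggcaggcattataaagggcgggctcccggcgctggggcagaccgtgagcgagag
Ankrd1 (chr19:36119825-36120064, minus strand): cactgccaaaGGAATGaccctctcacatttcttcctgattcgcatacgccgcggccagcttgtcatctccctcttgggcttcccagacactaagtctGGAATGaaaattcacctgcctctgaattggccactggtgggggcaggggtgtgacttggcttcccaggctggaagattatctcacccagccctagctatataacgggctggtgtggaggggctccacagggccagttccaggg
The promoters of 33 of the 39 genes were matched, in 39 entries. Actg2, Csrp2, Ctgf, Myh11, Myocd and Tagln had no entry. CArG boxes stood in 6 of the 39 entries, against 1.63% of all 32851 promoters of the same length. CATTCC stood on either strand in 18 of the 39, against 14.7% of all. These 18 belong to 17 genes, since 2 overlapping entries of Wwtr1 hold the same match. The genes were listed in part as SRF or YAP related, so an excess of these elements is no independent result. Both strands were searched over 250 bases before the start to 50 after it, and no CArG box overlapped a CATTCC match. Srf held 2 CArG boxes, 82 and 62 bases before its start. Acta1, Actc1, Cnn2, Myl6 and Myl9 held 1 each, 73, 47, 56, 50 and 161 bases before the start. Myl6 has 2 entries with separate starts, and its box stood in entry 2 alone. Acta1 was the one gene with both elements, its CATTCC lying 46 bases before the start, and Ankrd1 held 2 CATTCC matches, 210 and 123 bases before. These are matches of letters, and no binding was measured.

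**Figure D1:**
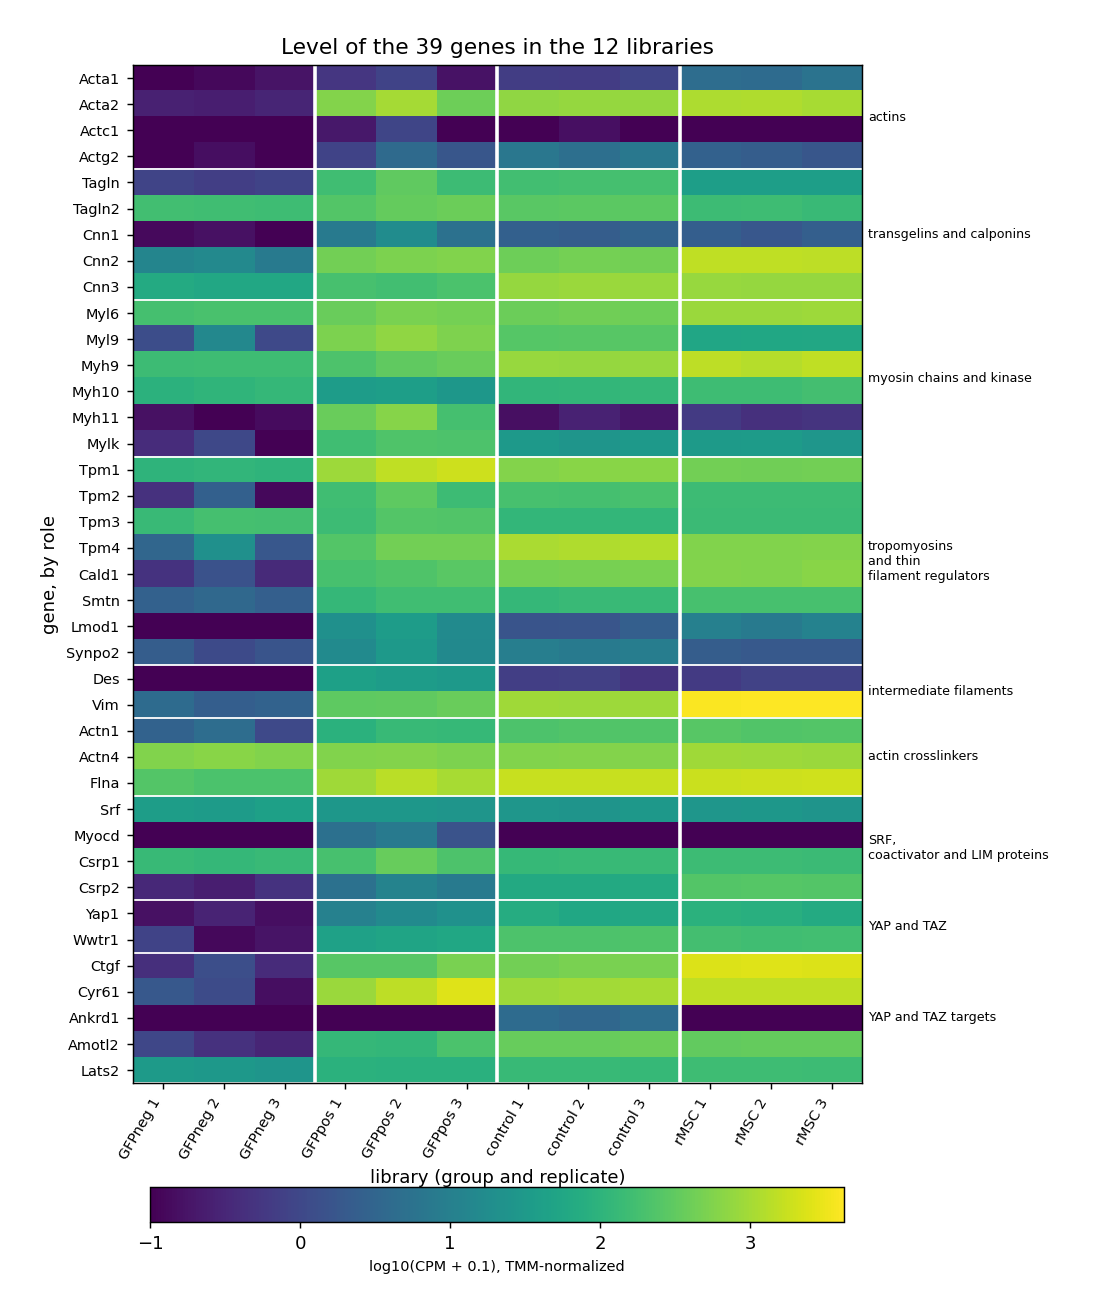
Heat map of log10(CPM + 0.1) for the 39 genes (rows, by role) in the 12 libraries (columns, by group). Most rows are darkest in GFPneg. Myh11, Des and Myocd are brightest in GFPpos, Ankrd1 is above 0 in control alone, and Vim and Ctgf are brightest in rMSC.

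Levels below are CPM for each library in the order of replicates 1, 2 and 3, or mean ± SD over 3 libraries. Log2 fold changes are given with their standard error (SE) and with the adjusted p of edgeR's quasi-likelihood test over all 15163 genes tested, and a gene is said to rise or fall where that p was under 0.05. Of the 39 genes, 38 passed the filter on low counts. The missing one was Actc1, cardiac actin, with 0.0990, 0.839 and 0 CPM in GFPpos and a single library of the cultures above 0. GFPpos against GFPneg asks which genes mark the reporter-positive cells, and control against GFPpos how cultured stroma differs from fresh cells. The last 2 comparisons ask how rMSC libraries differ from control libraries and from fresh GFPpos cells. With culture days and separate cultures not given, a difference between rMSC and control cannot be assigned to the 5 genes alone. The comparisons share groups, so their values are given side by side and are not independent.

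In GFPpos against GFPneg, 33 of the 38 genes rose and 2 fell, while of all genes 40.5% rose and 36.5% fell. The median log2 fold change was 5.54 over the 38 genes and 0.08 over all genes. From GFPpos to control, 13 rose and 10 fell (34.2% and 26.3% of 38), against 32.5% and 35.9% of all genes, with medians of 0.01 and -0.04. From control to rMSC, 12 rose and 6 fell (31.6% and 15.8%), against 24.5% and 25.5% of all genes, with medians of 0.19 and -0.01. From GFPpos to rMSC, 19 rose and 13 fell (50% and 34.2%), against 33.4% and 38.2% of all genes, with medians of 0.50 and -0.08. The share of the 38 that rose stood far above the background in the first comparison and near it from GFPpos to control. A fit without the 3 fresh libraries high in megakaryocyte markers was added after seeing the data. It keeps 1 GFPpos library, so its calls are not counted, and only effect sizes are given below.

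Of the actins, the smooth muscle form was abundant in all groups but GFPneg. Acta2, smooth muscle alpha-actin (GRCm38 chr19:34241090-34255590, minus strand), had levels of 0.162, 0.143 and 0.199 CPM in GFPneg and of 581, 999 and 404 in GFPpos. It was 727, 789 and 792 in control and 1148, 1193 and 1061 in rMSC. All GFPneg libraries were far below all others, and the rMSC libraries lay above every other library, while control lay within the range of GFPpos. Acta2 rose by 11.93 ± 0.42 on the log2 scale (adjusted p = 1.35e-09) from GFPneg to GFPpos. Control and GFPpos were not distinguished (log2 fold change 0.22 ± 0.25, adjusted p = 0.452), and without GFPpos replicate 2, the highest of the fresh libraries, the value was 0.65 with an adjusted p of 0.00317. From GFPpos to rMSC it rose by 0.78 ± 0.25 on the log2 scale (adjusted p = 0.0165), a call lost without GFPpos replicate 1 (adjusted p = 0.0507) and with the 2 groups fitted alone (0.0684).

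Actg2, the gamma-actin of visceral smooth muscle, was 0.767, 3.83 and 1.63 CPM in GFPpos, 6.66, 4.87 and 7.10 in control and 2.58, 2.25 and 1.61 in rMSC. Control lay above the other groups in every library, but neither difference passed the main test (adjusted p = 0.0532 against GFPpos and 0.0764 for rMSC against control). Control against GFPpos passed with DESeq2 (adjusted p = 0.0128), with voom (0.0398), with the replicate number as a block (0.0423) and without GFPpos replicate 2 (log2 fold change 2.38 against 1.59, adjusted p = 0.0118). Actg2 in rMSC against control passed with DESeq2 (0.0214), voom (7.70e-05) and the 2 groups fitted alone (1.16e-05). Acta1, skeletal alpha-actin, was 4.41, 4.00 and 5.58 CPM in rMSC against 0.586, 0.575 and 0.776 in control, and rose by 2.85 ± 0.80 on the log2 scale (adjusted p = 0.0121). No rMSC library overlapped another group. Over 11 skeletal muscle markers the sum was 19.6 to 25.0 CPM in GFPneg and 8.37 to 12.2 in GFPpos, and lay lower in both cultures (control 1.13 to 1.69, rMSC 1.35 to 1.57). Of the 11, Myod1, Myog, Myh1 and Myh4 had 0 counts in all 12 libraries. The part of such cells in the Acta1 values was not tested. The coding sequences of actins are nearly identical, so reads of the low members could be split or misassigned in counting. Per kilobase of exon, Acta2 made up 25.8% ± 8.34 of the sum of the 6 actins (these 4 with the cytoplasmic Actb and Actg1) in GFPpos, 23.9% ± 0.850 in control and 29.6% ± 1.03 in rMSC, and at most 0.0126% in a GFPneg library.

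Transgelin and the calponins parted from each other. Tagln, an actin-binding protein of smooth muscle, was 163, 311 and 149 CPM in GFPpos, 168, 186 and 187 in control and 38.7, 39.4 and 38.6 in rMSC, with 0.609 to 0.783 in GFPneg. All 3 rMSC libraries lay below all GFPpos and control libraries. Tagln fell from control to rMSC by 2.21 ± 0.23 on the log2 scale (adjusted p = 2.07e-05), while control against GFPpos was -0.20 ± 0.22 on the log2 scale (adjusted p = 0.439) and passed with voom alone among the full-library fits (-0.42, adjusted p = 0.0316). Its exons share 62.4% of their length with an antisense model, Gm48529, and with no strand setting given in the sources used here reads of such a pair cannot be told apart. Tagln2, the broadly expressed relative, also fell, from 287 ± 8.04 to 147 ± 8.54 CPM (log2 fold change -0.97 ± 0.13, adjusted p = 0.000141).

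Cnn1, the calponin of contractile smooth muscle, was 7.70, 17.5 and 5.13 CPM in GFPpos, 2.504, 2.23 and 2.89 in control and 2.29, 1.74 and 2.397 in rMSC. It was lower in both cultures than in every GFPpos library (log2 fold change -1.99 ± 0.53, adjusted p = 0.00652 for control against GFPpos). Cnn2 and Cnn3, calponins of many non-muscle cells, went another way. Cnn2 stood at 443, 509 and 568 CPM in GFPpos, 397, 448 and 435 in control and 1546, 1510.0 and 1495 in rMSC. It rose from control to rMSC by 1.83 ± 0.20 on the log2 scale (adjusted p = 2.24e-05), with no rMSC library near another group. Cnn3 stood at 189.6, 171 and 208 CPM in GFPpos, and was higher in both cultures, with 823 ± 32.6 in control and 807 ± 9.47 in rMSC. It rose from GFPpos to control by 2.12 ± 0.09 on the log2 scale (adjusted p = 2.09e-08). Per kilobase, Cnn2 was 75.6% ± 1.90 of the 3 calponins in GFPpos, 38.9% ± 0.841 in control and 69.8% ± 0.147 in rMSC, so Cnn3 was the larger share in control and Cnn2 in GFPpos and rMSC.

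Among the myosins, the smooth muscle heavy chain was nearly absent from both cultures. Myh11 (GRCm38 chr16:14194535-14291372, minus strand), a marker of mature smooth muscle, was 375, 621 and 183 CPM in GFPpos. It was 0.0533, 0.173 and 0.0895 in control, 0.523, 0.344 and 0.395 in rMSC and 0.0591, 0 and 0.0373 in GFPneg. Every GFPpos library stood far above all 9 others. Myh11 rose by 13.58 ± 0.69 on the log2 scale (adjusted p = 2.16e-08) from GFPneg to GFPpos and fell by 11.86 ± 0.62 on the log2 scale (adjusted p = 6.98e-08) from GFPpos to control. The cultures did not overlap, but their difference did not pass the main test (log2 fold change 1.99 ± 0.81, adjusted p = 0.0638). There Myh11 passed with DESeq2 (adjusted p = 0.00521), the 2 groups fitted alone (0.00569) and the replicate number as a block (0.0247). Its kinase partner Mylk, myosin light chain kinase, was 163, 224 and 212 CPM in GFPpos, and 28.5 ± 2.78 and 31.2 ± 4.15 in control and rMSC. Mylk fell by 2.81 ± 0.46 on the log2 scale (adjusted p = 0.000281) from GFPpos to control, and both cultures stayed above GFPneg (0 to 0.907).

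Myl9 (GRCm38 chr2:156775420-156781658, plus strand), the regulatory light chain that Mylk phosphorylates, lay in 4 separate ranges. It was 516, 715 and 548 CPM in GFPpos, 255, 271 and 269 in control, 55.2, 56.9 and 58.6 in rMSC and 1.12, 14.6 and 0.970 in GFPneg. No groups overlapped. Within GFPneg, replicate 2 stood above the others, and it also held the most megakaryocyte marker RNA, whose part was not tested. Without that library, GFPpos against GFPneg was 9.16 on the log2 scale, against 6.72 with it. Its fall from control to rMSC was -2.22 ± 0.77 on the log2 scale, with an adjusted p of 0.0332, and the adjusted p ranged from 0.0661 to 0.0958 when any single control or rMSC library was left out of the fit of 12 and was 3.17e-15 with the 2 groups fitted alone. Control against GFPpos was -1.16 ± 0.74 on the log2 scale (adjusted p = 0.186), and the adjusted p was 0.000412 for the 2 groups alone and 3.24e-05 with voom.

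The non-muscle heavy chains rose at both steps. Myh9, the heavy chain of non-muscle myosin IIA, was 214, 313 and 374 CPM in GFPpos, 818, 779.6 and 833 in control and 1442, 1314 and 1505 in rMSC. Each step was without overlap, at 1.43 ± 0.16 on the log2 scale (adjusted p = 1.86e-05) from GFPpos to control and 0.81 ± 0.16 on the log2 scale (adjusted p = 0.00172) from control to rMSC. Myh10, the IIB chain, was the lowest in GFPpos, at 34.3 ± 5.15 CPM against 106 ± 13.1 in GFPneg, 114 ± 3.67 in control and 162 ± 9.52 in rMSC, and it was one of the 2 genes that fell from GFPneg to GFPpos (log2 fold change -1.63 ± 0.12, adjusted p = 3.16e-07). Myh10 rose from GFPpos to control (log2 fold change 1.74 ± 0.12, adjusted p = 3.94e-07) and from there to rMSC (log2 fold change 0.50 ± 0.11, adjusted p = 0.00402). Myl6, the essential light chain of smooth and non-muscle myosin, was 445 ± 69.4 CPM in GFPpos and 403 ± 17.0 in control (log2 fold change -0.14 ± 0.10, adjusted p = 0.241), and rose to 869.7 ± 31.6 in rMSC (log2 fold change 1.11 ± 0.11, adjusted p = 9.22e-06). Per kilobase, Myh11 was 63.0% ± 17.2 of the 3 heavy chains in GFPpos, from 43.3% to 74.6% over the libraries, and Myh9 was 32.6% ± 16.7. In control Myh9 was 85.1% ± 0.457 and in rMSC 87.6% ± 0.521.

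**Figure D2:**
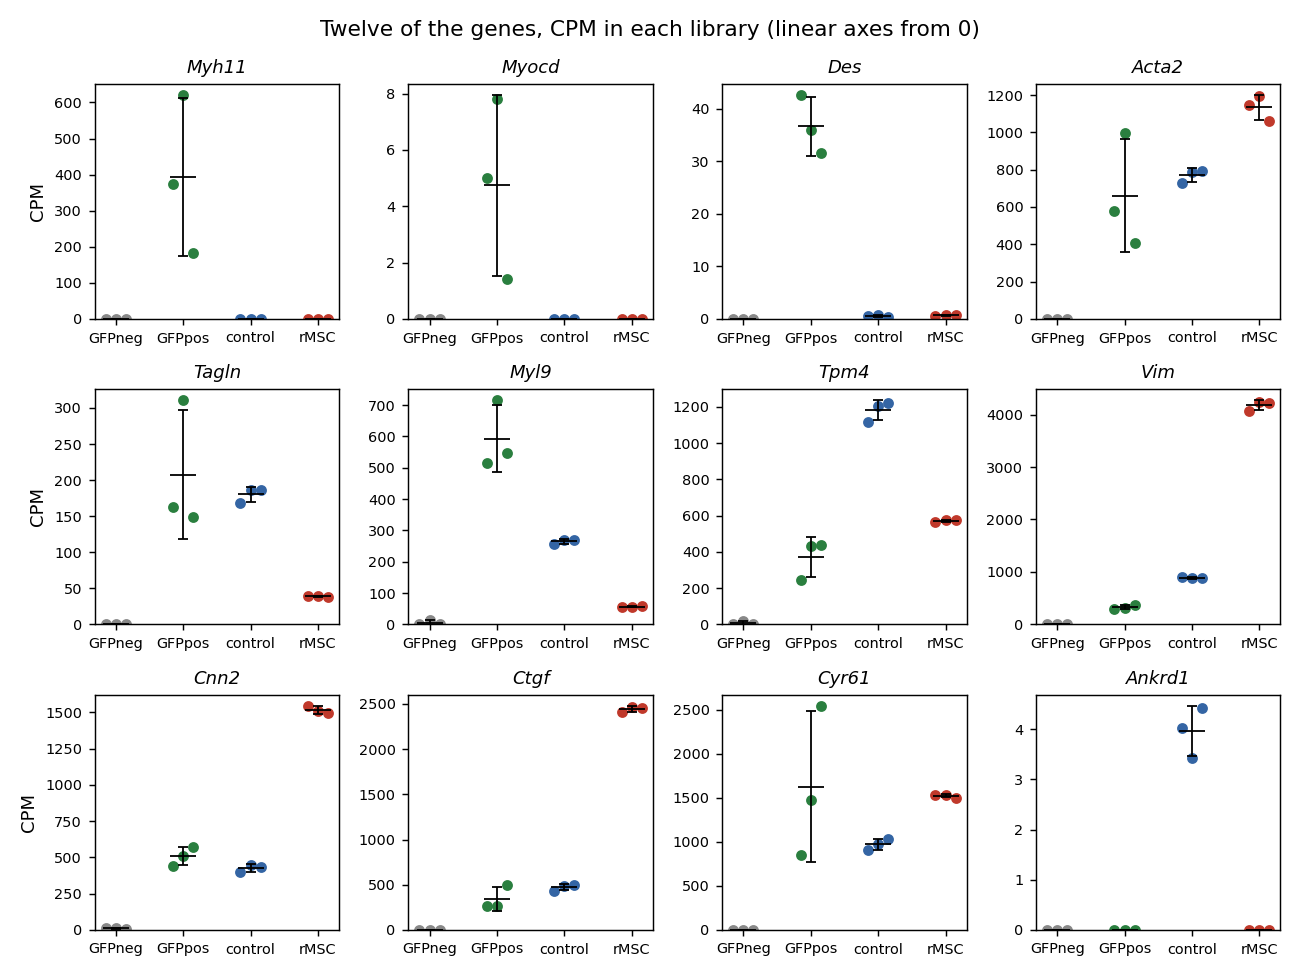
CPM of 12 genes in each library (points), with mean and SD over 3 libraries (bars), on linear axes from 0. Myh11, Myocd and Des are high in GFPpos and near 0 in the cultures, Acta2 is high in all but GFPneg, Tagln and Myl9 are lower in rMSC than in control, Vim, Cnn2 and Ctgf are highest in rMSC, and Ankrd1 is above 0 in control only.

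The tropomyosins, rods that lie along the actin filament and set which myosins can bind, changed places. Tpm1 was 896, 1529 and 1855 CPM in GFPpos, 592, 648 and 644 in control and 436, 423 and 433 in rMSC. All cultures lay below all GFPpos libraries, and Tpm1 fell from GFPpos to control by 1.18 ± 0.20 on the log2 scale (adjusted p = 0.000367). The smaller step from control to rMSC was -0.54 ± 0.20 on the log2 scale (adjusted p = 0.0428), lost on leaving out any single control or rMSC library (adjusted p from 0.0701 to 0.107) and 5.77e-09 for the 2 groups alone. Tpm4, a tropomyosin of stress fibres and platelets, was 244, 435 and 438 CPM in GFPpos, 1119, 1206 and 1220.2 in control and 567, 573 and 578 in rMSC. Control lay above all others without overlap. Neither Tpm4 difference passed edgeR's main test (log2 fold change 1.67 ± 0.69, adjusted p = 0.0508 for control against GFPpos and log2 fold change -1.05 ± 0.68, adjusted p = 0.227 for rMSC against control), and both passed with the 2 groups fitted alone (adjusted p = 0.000911 and 1.55e-12) and with voom on all 12 libraries (3.37e-05 and 3.71e-07). Control against GFPpos also passed with the replicate number as a block (0.0421). Its spread in the 12-library fit includes GFPneg, at 3.23, 20.9 and 1.70 CPM.

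Tpm2, the beta form of muscle, was 159, 297 and 151 CPM in GFPpos, and 189 ± 7.18 in control and 150.2 ± 1.23 in rMSC, with neither culture told apart from GFPpos in the main fit (adjusted p = 0.903 and 0.552), although voom placed rMSC below GFPpos (-0.64, adjusted p = 0.0113). Tpm3, which most cells express, was within 138 to 182 CPM in GFPneg and 147 to 245 in GFPpos, and was 0.35 ± 0.17 on the log2 scale (adjusted p = 0.0777) between them. It passed the test under RLE, upper-quartile and DESeq2 scaling, with values of 0.48 to 0.49. Tpm3 fell from GFPpos to control (log2 fold change -0.86 ± 0.17, adjusted p = 0.000951) and to rMSC (log2 fold change -0.55 ± 0.17, adjusted p = 0.0122), the latter call being lost without GFPpos replicate 2 (adjusted p = 0.0539). Per kilobase, Tpm1 was 44.3% ± 4.75 and Tpm4 34.2% ± 0.376 of the 4 tropomyosins in GFPpos. In control Tpm1 was 13.5% ± 0.188 and Tpm4 74.8% ± 0.327, and in rMSC Tpm1 was 16.6% ± 0.266 and Tpm4 64.7% ± 0.295. In GFPneg the largest share was that of Tpm3, at 57.3% ± 5.65.

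**Figure D3:**
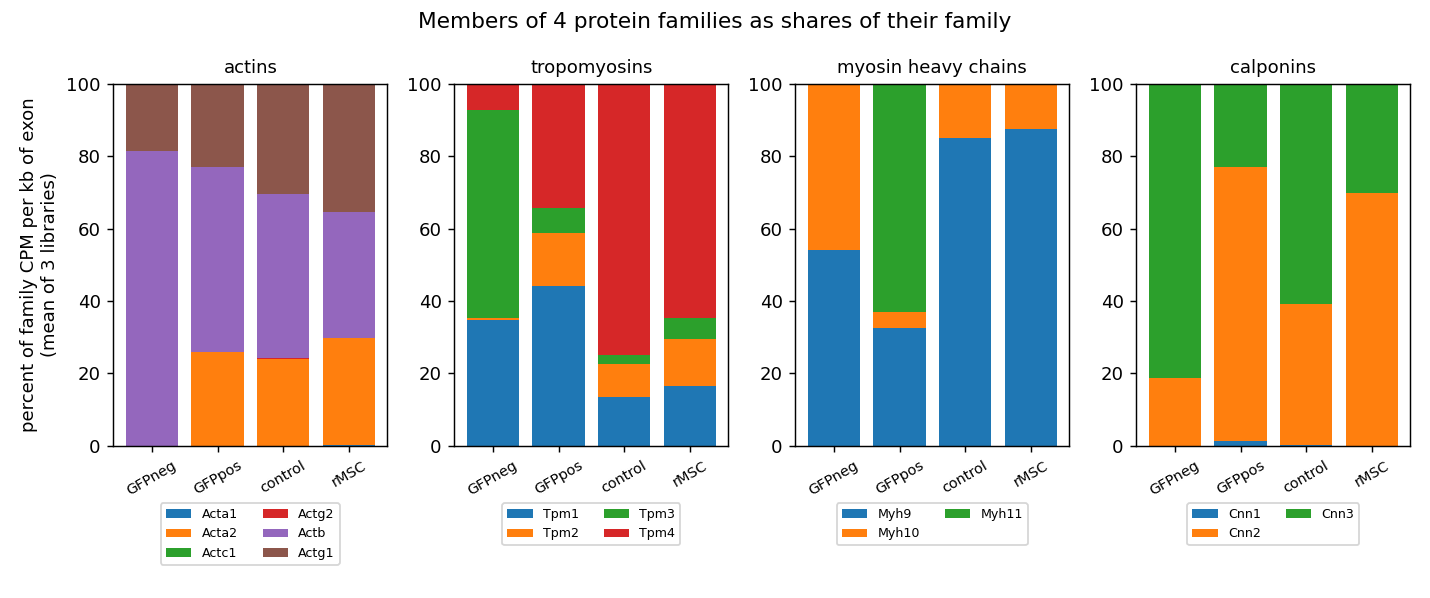
Share of each gene in the summed CPM per kilobase of exon of its family (bars, mean of 3 libraries; y axis in percent) for actins, tropomyosins, myosin heavy chains and calponins in the 4 groups. Tpm4 and Myh9 are the largest shares in both cultures, and Myh11 is a visible share in GFPpos alone.

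Of the other thin filament proteins, Lmod1 and Synpo2 were lower in both cultures than in GFPpos, Cald1 was higher, and Smtn was higher in rMSC. Lmod1, leiomodin, which nucleates actin filaments in smooth muscle, was 20.6, 35.8 and 16.2 CPM in GFPpos, 1.49, 1.55 and 2.43 in control and 10.1, 8.04 and 10.9 in rMSC, with 0 counts in GFPneg. At the floor of 3 counts per library, the GFPpos mean was at least 618-fold higher than GFPneg. Lmod1 fell by 3.73 ± 0.36 on the log2 scale (adjusted p = 1.84e-05) from GFPpos to control and was higher in rMSC than in control by 2.41 ± 0.34 on the log2 scale (adjusted p = 0.000389), with no overlap between any of the 3 groups. Synpo2, an actin-bundling protein of muscle, was 16.6, 32.4 and 15.6 CPM in GFPpos, 8.79 ± 0.914 in control and 1.97 ± 0.172 in rMSC. It fell at both steps, by 1.29 ± 0.33 on the log2 scale (adjusted p = 0.00460) and then by 2.15 ± 0.34 on the log2 scale (adjusted p = 0.000363).

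Cald1, caldesmon, which restrains actomyosin, was 188, 221 and 279 CPM in GFPpos, 479 ± 22.7 in control and 598 ± 26.6 in rMSC. Control against GFPpos was 1.06 ± 0.36 on the log2 scale (adjusted p = 0.0227), and the call was lost under DESeq2 (adjusted p = 0.0729) and on leaving out GFPpos replicate 1 or 2 or control replicate 2 or 3 (0.0505 to 0.0614). Smtn, smoothelin, named for smooth muscle, did not follow Myh11. It was 147 ± 24.8 CPM in GFPpos, 128 ± 6.37 in control and 192 ± 0.845 in rMSC, against 2.90 ± 0.640 in GFPneg, and rose from control to rMSC by 0.58 ± 0.14 on the log2 scale (adjusted p = 0.00614).

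The intermediate filament genes moved in opposite directions. Des, desmin of muscle and pericytes (GRCm38 chr1:75360329-75368579, plus strand), was 42.6, 35.9 and 31.5 CPM in GFPpos, 0.626, 0.662 and 0.403 in control, 0.523, 0.735 and 0.733 in rMSC and 0 in all 3 GFPneg libraries. Its mean was at least 937-fold higher in GFPpos than in GFPneg. Des fell by 6.02 ± 0.27 on the log2 scale (adjusted p = 1.83e-07) from GFPpos to control. The cultures were not told apart (log2 fold change 0.24 ± 0.25, adjusted p = 0.466). Vim, vimentin of mesenchymal cells (GRCm38 chr2:13573927-13582826, plus strand), was 301, 314 and 366 CPM in GFPpos, 912, 875 and 885 in control and 4066, 4239.6 and 4223 in rMSC, and 2.34 to 4.05 in GFPneg. No 2 groups overlapped, and Vim rose by 1.45 ± 0.17 on the log2 scale (adjusted p = 1.92e-05) and then by 2.23 ± 0.17 on the log2 scale (adjusted p = 1.87e-06).

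Of 3 crosslinkers of actin filaments, 2 rose from GFPpos to control and the third rose in rMSC. Flna, filamin A, rose from 1123 ± 249 CPM in GFPpos to 1737 ± 27.4 in control (log2 fold change 0.63 ± 0.14, adjusted p = 0.00242), and was 1892 ± 68.2 in rMSC. Actn1, the alpha-actinin of stress fibres and focal adhesions, was 116 ± 23.5, 227 ± 10.8 and 249.8 ± 13.4 CPM in the same order. Its rise to control (log2 fold change 0.97 ± 0.35, adjusted p = 0.0296) was lost on leaving out GFPpos replicate 1 or any control library (adjusted p from 0.0560 to 0.0754). Actn4, the non-muscle alpha-actinin, lay between 556 ± 34.6 and 585 ± 45.5 CPM in the 2 fresh groups and at 575 ± 9.13 in control. It rose in rMSC, to 887 ± 25.2 (log2 fold change 0.63 ± 0.08, adjusted p = 7.25e-05).

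Srf itself varied little. Its CPM were 37.1, 35.0 and 42.6 in GFPneg, 28.3, 28.6 and 25.4 in GFPpos, 26.8, 24.9 and 29.2 in control and 26.6, 28.3 and 24.8 in rMSC. GFPpos, control and rMSC overlapped. The small fall from GFPneg to GFPpos (log2 fold change -0.48 ± 0.10, adjusted p = 0.00114) was not called with those 2 groups fitted alone (adjusted p = 0.0941). Myocd, the myocardin gene (GRCm38 chr11:65176561-65269989, minus strand), was 5.01, 7.82 and 1.42 CPM in GFPpos and had 0 counts in all 9 other libraries. At the floor of 3 counts per library its GFPpos mean was at least 121-fold higher than GFPneg. Against that mean, control was at least 111-fold lower and rMSC at least 103-fold lower. The LIM proteins, small adaptors of the actin cytoskeleton, diverged. Csrp1 was 193, 359 and 218 CPM in GFPpos and lower in both cultures (133 ± 5.24 and 148 ± 2.98; log2 fold change -0.95 ± 0.18, adjusted p = 0.000861 for control against GFPpos). Csrp2, described in smooth muscle, was 5.12, 11.4 and 7.999 CPM in GFPpos, 65.3, 63.8 and 68.2 in control and 246, 260.4 and 248 in rMSC, rising by 3.01 ± 0.26 on the log2 scale (adjusted p = 1.99e-06) and then by 1.93 ± 0.24 on the log2 scale (adjusted p = 6.75e-05) with no overlap.

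**Figure D4:**
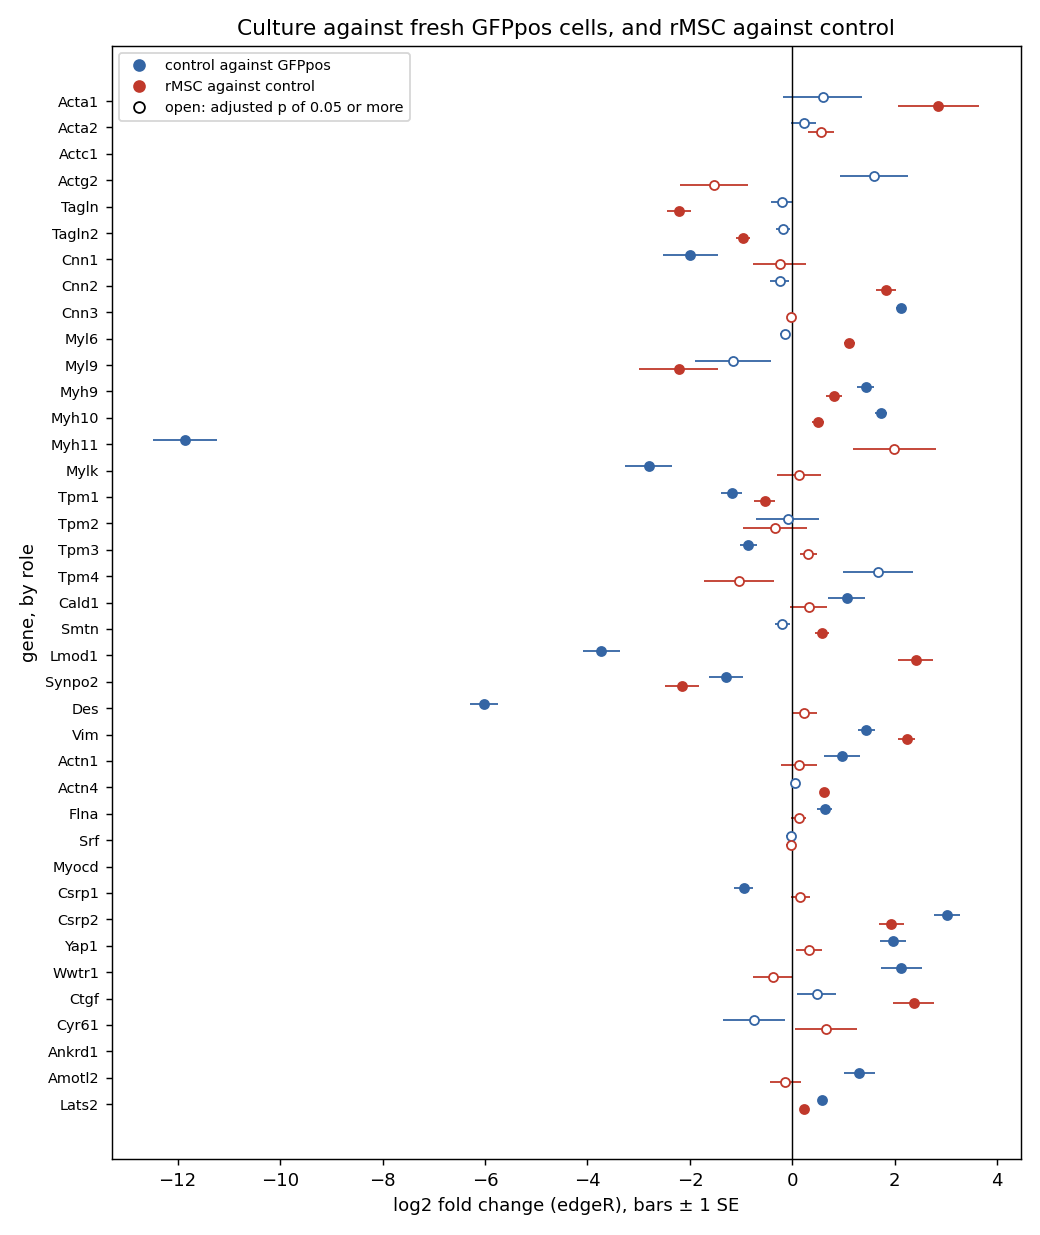
Log2 fold changes (x axis, edgeR) with bars of 1 SE for control against GFPpos (blue) and rMSC against control (red), genes by role on the y axis, filled where the adjusted p was under 0.05. Myh11 and Des lie farthest to the left for control against GFPpos. Actc1, Myocd and Ankrd1 have no point where a group was at 0 or the gene was not tested.

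RNA of the coactivators YAP and TAZ was lowest in GFPneg, higher in GFPpos and highest in both cultures. Yap1 was 10.8, 16.4 and 21.9 CPM in GFPpos, 71.8, 57.6 and 61.7 in control and 89.4, 81.4 and 68.7 in rMSC, with 0.0497 to 0.191 in GFPneg. Wwtr1, the TAZ gene, was 43.6, 50.02 and 58.0, 216, 219 and 229 and 175, 165 and 169 CPM in the same 3 groups. Every culture library lay above every fresh library for both genes, and they rose from GFPpos to control by 1.96 ± 0.26 on the log2 scale (adjusted p = 6.13e-05) and 2.13 ± 0.41 on the log2 scale (adjusted p = 0.000786). The cultures were not told apart in the fit of 12 libraries (log2 fold change 0.33 ± 0.25, adjusted p = 0.313 and log2 fold change -0.38 ± 0.39, adjusted p = 0.451). With the 2 cultures fitted alone, adjusted p were 0.00545 for Yap1, higher in rMSC but with overlapping libraries, and 4.38e-07 for Wwtr1, lower in rMSC without overlap. In GFPneg, Wwtr1 was 0.768, 0.0239 and 0.0746 CPM, and replicate 1 was also the one with 40.7 CPM over 6 stromal niche markers, against 0.322 and 1.37 in the others.

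Of the 5 targets of YAP and TAZ, Ankrd1, Amotl2 and Lats2 rose from GFPpos to control in the main fit, and Ctgf and Cyr61 did not pass it. Ctgf (GRCm38 chr10:24595442-24598683, plus strand), a secreted matrix protein and widely used YAP target, was 265, 263 and 491 CPM in GFPpos, 432, 488 and 498 in control and 2409.8, 2471 and 2460.0 in rMSC, and 0.273 to 1.17 in GFPneg. GFPpos replicate 3 reached the level of control, and all rMSC libraries lay far above. Control against GFPpos was 0.48 ± 0.38 on the log2 scale (adjusted p = 0.283) and passed with voom (0.70, adjusted p = 0.000598). Ctgf rose from control to rMSC by 2.37 ± 0.40 on the log2 scale (adjusted p = 0.000556). Cyr61 (GRCm38 chr3:145646976-145649981, minus strand), its relative and also an immediate-early gene, was 851, 1475 and 2542 CPM in GFPpos, 904, 972 and 1033 in control and 1535, 1535 and 1501 in rMSC. GFPpos spanned both cultures, and neither difference passed the main test (adjusted p = 0.296 and 0.902), although voom placed control below GFPpos (-0.56, adjusted p = 0.0130). The rMSC libraries lay above the control libraries, with 0.65 ± 0.61 on the log2 scale (adjusted p = 0.407) in the fit of 12 and an adjusted p of 2.04e-09 for the 2 groups alone.

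Ankrd1, a muscle ankyrin-repeat protein and common YAP reporter gene (GRCm38 chr19:36111961-36120099, minus strand), was the one gene found in control only. It was 4.04, 3.44 and 4.43 CPM there and had 0 counts in the 9 other libraries. At the floor of 3 counts per library, the control mean was at least 82.2-fold higher than GFPpos, and rMSC at least 86.1-fold lower than that mean. Amotl2 and Lats2, targets that in turn restrain YAP, rose from GFPpos to control. Amotl2 went from 149 ± 53.8 to 369 ± 9.45 CPM (log2 fold change 1.31 ± 0.30, adjusted p = 0.00275) and was 336 ± 3.41 in rMSC. Lats2 went from 87.3 ± 2.75 to 129.8 ± 4.99 (log2 fold change 0.57 ± 0.08, adjusted p = 5.84e-05) and to 151 ± 3.04 in rMSC (log2 fold change 0.22 ± 0.08, adjusted p = 0.0331), the last step lost on leaving out any single control or rMSC library (adjusted p from 0.0586 to 0.1197). Lats2 shares 42.4% of its exon length with a second model on its strand, Gm49361. Of the 5 targets, 2 were higher and 1 lower in rMSC than in control, where 24.5% of all genes rose and 25.5% fell.

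From control to rMSC, the number of calls differed between fits, for these genes as for all genes. In the main fit 18 of the 38 genes (47.4%) were called against 50.1% of all genes, and 31 of 38 had libraries that did not overlap, against 71.7% of all genes. With the 6 culture libraries fitted alone, 32 of 37 tested genes (86.5%) were called, 21 higher and 11 lower, against 74.0% of all genes in that fit. With voom and quality weights on all 12 libraries 29 of 38 (76.3%) were called, against 69.8% of all genes. The 14 genes called for the 2 groups alone and not in the fit of 12 were Acta2, Myh11, Tpm3, Cald1, Actn1, Flna, Csrp1, Yap1 and Cyr61, higher in rMSC, and Actg2, Tpm2, Tpm4, Wwtr1 and Amotl2, lower. In that fit the adjusted p was 3.33e-08 for Acta2 and 1.77e-06 for Tpm2, with log2 fold changes of 0.56 and -0.33.

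Other genes of the same pathways are given by count, to be read against the shares of all genes that rose and fell, 40.5% and 36.5% from GFPneg to GFPpos, 32.5% and 35.9% from GFPpos to control, 24.5% and 25.5% from control to rMSC, and 33.4% and 38.2% from GFPpos to rMSC. Of 17 further MRTF and SRF targets and cofactors, 13 rose and 1 fell from GFPneg to GFPpos, 7 rose and 2 fell from GFPpos to control, 5 rose and 1 fell from control to rMSC, and 9 rose and 1 fell from GFPpos to rMSC. Median log2 fold changes were 2.06, 0.49, 0.28 and 0.65. Fhl2, a LIM protein and SRF cofactor, had 185 ± 37.6 CPM in the GFPpos cells against 0.123 ± 0.150 in GFPneg, and Fhl1 at 430.2 ± 9.42 in rMSC and 42.4 ± 1.41 in control. Nexn, an actin-binding protein, was 4.14 ± 1.14 CPM in GFPpos, 6.46 ± 0.807 in control and 18.3 ± 0.620 in rMSC. Pdlim5, a protein with PDZ and LIM domains that binds alpha-actinin, was 36.0 ± 8.09, 127.9 ± 1.43 and 285 ± 4.88 CPM in the same order. Mkl2, an MRTF gene, rose from 10.6 ± 5.59 CPM in GFPpos to 28.2 ± 1.22 in control.

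Of 17 other YAP and TAZ signature genes, 13 rose and 3 fell from GFPneg to GFPpos, 12 rose and 1 fell from GFPpos to control, 9 rose and 5 fell from control to rMSC, and 13 rose and 1 fell from GFPpos to rMSC, with medians of 7.55, 0.91, 0.51 and 1.89. Rbms3 and Myof rose most from GFPneg to GFPpos, to 84.3 ± 18.3 and 37.4 ± 3.16 CPM. F3, tissue factor, was 3.80 ± 2.54 CPM in GFPpos, 606 ± 23.8 in control and 93.8 ± 4.76 in rMSC. Nt5e, the ecto-enzyme CD73, was 27.8 ± 15 CPM in GFPpos, 1.05 ± 0.0332 in control and 28.3 ± 0.594 in rMSC. Igfbp3, a binding protein of insulin-like growth factors, was 178 ± 57.5, 56.3 ± 7.21 and 0.872 ± 0.334 CPM in the same groups.

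A further list held 15 genes: Hippo kinases with their adaptors and scaffolds, and TEAD factors with their cofactors. Among these 15, 9 rose and 5 fell from GFPneg to GFPpos, and 9 rose and 2 fell from GFPpos to control. From control to rMSC 7 rose and 4 fell, and from GFPpos to rMSC 9 rose and 3 fell, with medians of 1.74, 0.95, -0.04 and 0.99. The list pools genes that restrain YAP with its DNA-binding partners, so these counts give no direction for the pathway. Tead1, a DNA-binding partner of YAP, was 5.502 ± 1.22 CPM in GFPpos and 32.0 ± 2.33 in control. Tead2 was 49.0 ± 3.08 CPM in control and 4.69 ± 0.116 in rMSC, and Tead4 0.877 ± 0.226 and 5.74 ± 0.400, so the 2 moved in opposite directions. Vgll3, a TEAD cofactor, was 4.05 ± 0.379 CPM in GFPpos, 113 ± 2.16 in control and 216 ± 8.65 in rMSC.

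**Figure D5:**
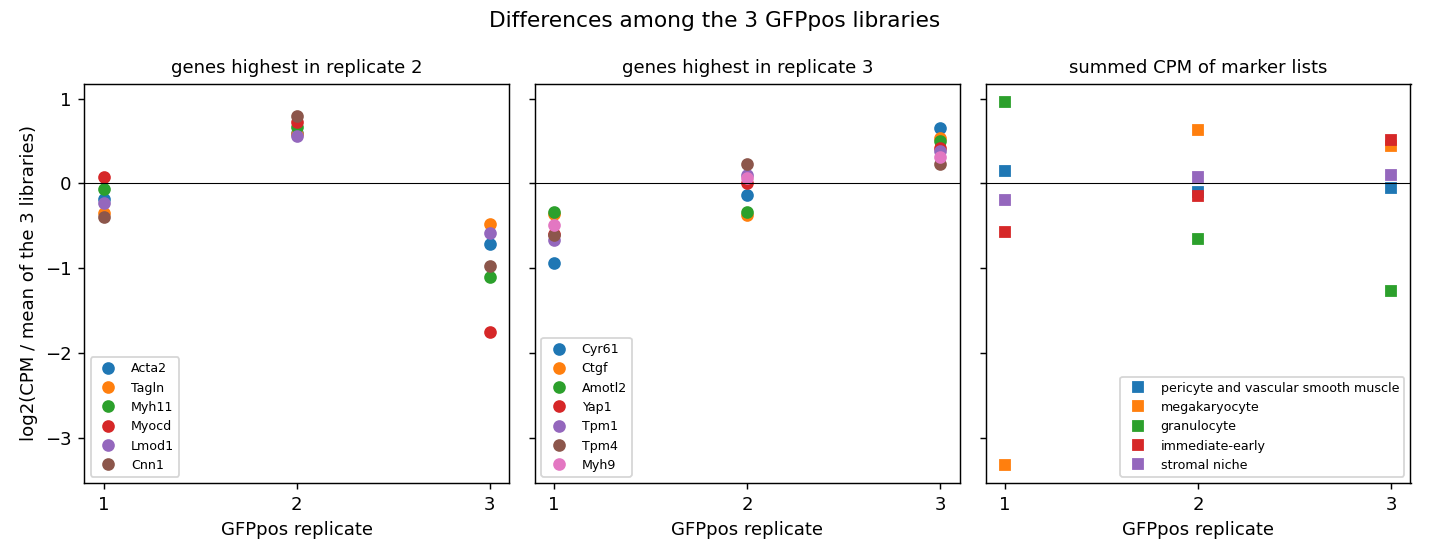
Log2 of CPM over the mean of the 3 GFPpos libraries (y axis) by replicate (x axis) for 6 genes highest in replicate 2, 7 genes highest in replicate 3 and 5 summed marker lists, chosen after their values were seen. Megakaryocyte markers are low in replicate 1, granulocyte markers are highest there, and immediate-early genes are highest in replicate 3.

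The 3 GFPpos libraries did not hold the same level of these genes. Of the 33 with a mean of at least 10 CPM in GFPpos, 2 were highest in replicate 1, 18 in replicate 2 and 13 in replicate 3, which is 6.06%, 54.5% and 39.4%, while of 9298 genes at that level 36.3%, 26.8% and 36.8% were highest in replicates 1, 2 and 3. The share highest in replicate 3 was near that of all genes. Acta2, Tagln, Cnn1, Myh11, Lmod1 and Synpo2, singled out after their values were seen, were highest in replicate 2 and lowest in replicate 3, by 2.07 to 3.41 times. The same order held for Tpm2, Myh10, Actn4 and Srf, while Myl9, Mylk and Smtn were highest in replicate 2 and lowest in replicate 1. Yap1, Wwtr1, Ctgf, Cyr61, Amotl2, Tpm1, Tpm4 and Myh9, also singled out afterwards, were highest in replicate 3, with Cyr61 differing by 2.99 times. So were Tagln2, Cnn2, Cnn3, Cald1 and Vim, and Lats2, another target of YAP and TAZ, was highest in replicate 1. Over 8 pericyte and vascular smooth muscle markers, the summed level was 1495, 1256 and 1303 CPM, and 3 of the 8 were highest in replicate 1, 4 in replicate 2 and 1 in replicate 3. Over 12 immediate-early genes the sum was 5957, 8045 and 12636 CPM, against 1257 to 1270 in GFPneg, 885 to 971 in control and 308 to 320 in rMSC. Granulocyte markers summed to 4253, 1390 and 906 CPM in the same 3 libraries. The part of these markers in the differences between GFPpos libraries was not tested.

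Markers of other cell types moved with the groups as well. The 8 pericyte and vascular smooth muscle markers summed to 0.323 to 2.73 CPM in GFPneg and 1256 to 1495 in GFPpos. Their sums were 1147 to 1202 in control libraries and 952 to 1000.1 in rMSC libraries, where Rgs5 and Higd1b were at 0. Of these 8, 5 fell and 0 rose from GFPpos to control, where 35.9% of all genes fell and 32.5% rose. From control to rMSC 4 fell and 1 rose, against 25.5% and 24.5% of all genes. From GFPpos to rMSC 6 fell and 1 rose, against 38.2% and 33.4%. With genes at 0 set to the floor of 3 counts, their median log2 fold changes were -3.92, -1.72 and -6.05 in this order. The sums weigh the most abundant markers and do not show these falls. Megakaryocyte markers summed to 6.63 to 7.91 CPM in control and 4.86 to 7.12 in rMSC, granulocyte markers to 8.12 to 8.98 and 0.996 to 1.23, erythroid markers to 33.0 to 38.3 and 38.2 to 42.0, monocyte and macrophage markers to 9.19 to 11.61 and 62.2 to 63.3, and endothelial markers to 14.3 to 16.0 and 2.42 to 2.85. In GFPpos the last 3 lists summed to 996 to 1826, 196 to 547 and 63.0 to 131 CPM, and in GFPneg to 6209 to 6648, 113 to 172 and 39.3 to 57.4. Proliferation genes summed to 6855 to 7456 CPM in GFPneg and 1154 to 2363 in GFPpos, and the 2 cultures lay lower, with 117 to 128 (control) and 108 to 145 (rMSC). Their part in the differences above was not tested. Without the 3 fresh libraries high in megakaryocyte markers, GFPpos against GFPneg gave log2 fold changes of 8.95 for Myl9, 6.64 for Tpm4 and 12.89 for Myh11. In control against GFPpos the sign then turned for Tagln (0.16), Tagln2 (0.21), Myl6 (0.14), Tpm2 (0.26), Smtn (0.13) and Cyr61 (0.20). Acta2 was 0.41, Actg2 3.02, Myl9 -0.95, Tpm4 2.29 and Ctgf 0.84 in the same comparison. Tpm1 (-0.50), Csrp2 (3.69) and Yap1 (2.57) changed by over 1.5 times, and Tpm3 in rMSC against GFPpos was -0.03. That fit has 1 GFPpos library, which is assumed to vary like the other groups, so no calls are given for it. Single GFPneg libraries also set the size of some differences from GFPpos. Without GFPneg replicate 2, log2 fold changes were 7.25 for Tpm4, 10.15 for Tpm2, 10.57 for Mylk and 9.55 for Cald1, against 5.43, 7.65, 8.94 and 8.40 with it. Without GFPneg replicate 1, Wwtr1 was 9.97 against 7.56 with it. Without GFPpos replicate 2, Cnn1 in control against GFPpos was -1.33 (adjusted p = 0.0440) against -1.99 with it.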

How the data were processed

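Total RNA of 12 libraries was made into cDNA with the SMART-Seq v4 kit and sequenced as 150 bp single-ended reads, per the labels' protocols. The deposited values are raw counts per gene. STAR 2.4.1c, featureCounts 1.4.6 and build mm10 are named in the submitters' processing notes, and the labels name Ensembl annotation of the same assembly. The strand and multimapping settings are not given in the sources used here.

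The tables held 24062 rows. Of these, 27 had symbols turned into dates by a spreadsheet and were left out (0.183% to 0.369% of counts), which left 24035 genes. Counts were scaled by TMM, filtered with filterByExpr and tested with edgeR 4.0.16 (limma 3.58.1, R 4.3.3) in 1 quasi-likelihood fit of 4 groups, with Benjamini-Hochberg adjustment over 15163 genes and a threshold of 0.05. The SE is the log2 fold change over the root of F. Bounds set a group mean against a floor of 3 counts per library, for counting error only, so single libraries can lie below them. Exon lengths and gene positions come from GENCODE M21 (GRCm38). The test was checked on simulated data. Alternatives were RLE and upper-quartile scaling, DESeq2 1.42.0, no filter, at least 50 counts in 3 libraries, 2 groups alone, a replicate block, voom with quality weights and leaving out each library. Leaving out replicate 1 of both fresh groups, or the 3 fresh libraries high in megakaryocyte markers, was added after seeing the data. The rule named all 39 genes and, of each other pathway list, up to 2 genes with the largest change past the threshold in each comparison. The genes and lists were chosen with earlier results of these data known. No 2 libraries of the same group agreed within sampling noise. The result of 1 further pathway list is not reported here.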

Additional observations from a re-analysis of the deposited data

How the results depend on the processing

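Of the counts of genes called, the one that moved by over 1.5 times was rMSC against control, from 18 to 32 with the 2 groups alone and to 29 with voom. Leaving out 1 library gave 35 to 36, 21 to 24, 14 to 15 and 30 to 32 called genes in the comparisons of the fresh groups, of control with GFPpos, of rMSC with control and of rMSC with GFPpos. Correlations of the deviations of same-numbered replicates were 0.160, 0.151 and 0.0174 in the fresh groups. In the other comparisons they ran from -0.025 to 0.021. Without values for differently numbered libraries beside them, these do not show whether replicates pair. With the replicate number as a block, 36, 25, 19 and 32 genes were called, and Tpm2 turned to 0.0357 in control against GFPpos. RLE and upper-quartile scaling moved the median of all genes in GFPpos against GFPneg from 0.08 to 0.20 and 0.21.

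Signs turned for genes that had not passed the test, and the cause was not tested. Actn4 in GFPpos against GFPneg was 0.0517 with RLE and DESeq2, 0.0624 with upper-quartile factors, 0.15 with the 2 groups alone and 0.0054 without the 3 libraries high in megakaryocyte markers. Those 3 left out gave -0.0878 for Tpm3 there, 0.16, 0.21, 0.14, 0.26, 0.13 and 0.20 for Tagln, Tagln2, Myl6, Tpm2, Smtn and Cyr61 in control against GFPpos, and 0.85 for Cyr61 in rMSC against GFPpos. Voom gave -0.0037 for Acta2 in control against GFPpos, and -0.11 for Actg2 and 0.0888 for Cyr61 in rMSC against GFPpos. Without replicate 1 of both fresh groups Actg2 was -0.345 there. Leaving out 1 library gave -0.12 to 0.0014 for Actn4 in GFPpos against GFPneg. In control against GFPpos it gave -0.0352 to 0.65 for Acta2, -0.39 to 0.21 for Tagln, -0.26 to 0.30 for Tpm2 and -0.0828 to 0.0320 for Srf. In rMSC against control it gave -0.0534 to 0.0024 for Cnn3 and -0.0757 to 0.0397 for Srf. In rMSC against GFPpos it gave -0.34 to 0.85 for Actg2, -0.10 to 0.0050 for Srf and -0.40 to 0.39 for Cyr61. Calls of Smtn and Wwtr1 in rMSC against GFPpos were lost under some settings (Smtn adjusted p up to 0.0866, Wwtr1 0.0501 with DESeq2), as was Acta1 in rMSC against control without control replicate 1 or 2 (0.0510 and 0.0512).

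Shares not divided by length were 20.5% (control) and 25.7% (rMSC) for Acta2, 64.1%, 29.7% and 33.2% (GFPpos, control, rMSC) for Tpm1, 16.8%, 55.9% and 44.2% for Tpm4, 87.6% (control) and 89.7% (rMSC) for Myh9, and 71.6%, 34.1% and 65.2% for Cnn2.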
